A study of Homo sapiens with 8 samples.

Results

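The comparison described here sets LNCaP cells in which an active METTL3 was put back against cells in which METTL3 was only knocked down. LNCaP is a human prostate adenocarcinoma line that depends on androgen signalling. Its members are 4 of the 8 RNA-seq libraries of the series, chosen by their labels alone: 2 libraries of the wild-type rescue and 2 of the knockdown. All 4 libraries came from stable lines that carry the same short hairpin against METTL3, delivered by lentivirus and kept under puromycin at 1 µg/ml. The wild-type rescue also carried a METTL3 coding copy that the hairpin cannot bind, and the knockdown carried a vector in its place. The other 4 libraries are a control hairpin with vector and a mutant rescue, in which the resistant METTL3 is catalytically dead. They entered the shared estimate of the spread and are named only where their values bear on a gene. The labels name neither the promoter that drives the introduced METTL3 nor whether the 2 libraries of a group came from separate cultures, so p-values measure the spread between these libraries, which may be technical.

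METTL3 is the catalytic subunit of the writer complex that places N6-methyladenosine (m6A) on messenger RNA. METTL14 is its partner, and WTAP, RBM15B, ZC3H13 and others guide the complex to its targets. Reader proteins of the YTH family bind m6A and change the splicing, translation or decay of the marked RNA, and ALKBH5 and FTO can remove it. Raised METTL3 has been reported in prostate tumours.

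Total counts ran from 15293357 to 17893241 in these 4 libraries, and 15289 of the 27140 genes in the table passed the filter on low counts. Libraries of a group lay close together, with a biological coefficient of variation of 1.40% over all 8 libraries, but differed by more than sampling noise (their chi-square over its degrees of freedom was 1.22 for the knockdown and 1.35 for the wild-type rescue). The LNCaP identity markers KLK3, KLK2, FOLH1, HOXB13, TMPRSS2, KRT8 and KRT18 each had at least 1995 counts in every library. Wild-type rescue library 1 stood apart in markers of other prostate lines, basal and mesenchymal cells: of 31 such genes, 16 had their highest count of the 4 libraries there. S100A6 had 77 counts in that library against 10 in wild-type rescue library 2, GSTP1 38 against 5, AKR1B1 72 against 10 and AXL 27 against 3, with 4 to 15 counts of each in the knockdown. COL1A2 was at 0 in all libraries. The whole list summed to 759 CPM (counts scaled to the library's total) in wild-type rescue library 1, 703 in library 2 and 770 to 773 in the knockdown. FN1 (8543 counts in wild-type rescue library 1) and COL1A1 (1441) made up most of that sum. Every other member had at most 229 counts in that library, so the sum says little about the rarer members. Gene by gene, the 25 tested members had a median log2 fold change (wild-type rescue over knockdown) of 0.60, against 0.01 over all tested genes. In the fit with the length trend removed, described below, that median was 0.65. By edgeR 2 of the 25 were called higher and 1 lower, where 10.8% and 13.2% of all tested genes were. The share of all genes with their highest count in wild-type rescue library 1 was not computed. The part of these cells or transcripts in the results below was not tested, and the main counts of genes are also given without wild-type rescue library 1.

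METTL3 itself rose the most. It stood at 26.2 and 31.3 CPM in the knockdown libraries and at 309 and 325 CPM in the wild-type rescue, 11.1-fold higher (log2 fold change 3.47, SE 0.04, adjusted p = 5.91e-124 by edgeR). The control libraries, at 68.4 and 68.5 CPM, lay between them, so the wild-type rescue held more METTL3 RNA than cells with the control hairpin. Reads of the resident gene and of the introduced copy fall on the same gene and were counted together. The mutant rescue, at 333 and 334 CPM, held a like amount.

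The rest of the m6A machinery moved far less than METTL3. Of the 8 tested writer genes, METTL3 rose and 2 fell (RBM15B and KIAA1429), and the other 5 did not pass the test. Over all tested genes, 10.8% rose and 13.2% fell. Without wild-type rescue library 1, 2 writers rose and 1 fell. METTL14 stood at 26.9 and 25.7 CPM in the knockdown and 24.6 and 24.9 in the wild-type rescue (log2 fold change -0.09, SE 0.07, adjusted p = 0.445 by edgeR). RBM15B, an RNA-binding adaptor of the complex, went from 188 and 198 CPM to 167 and 167 (log2 fold change -0.21, SE 0.03, adjusted p = 2.16e-09 by edgeR). KIAA1429, the scaffold also known as VIRMA, was at -0.14 (SE 0.05, adjusted p = 0.0264 by edgeR) and lost its call without knockdown library 1 (-0.07, adjusted p = 0.469) or wild-type rescue library 1 (-0.08, adjusted p = 0.386), and with the length trend removed (-0.05, adjusted p = 0.532). ZC3H13 went the other way: it was not called at first (0.08, SE 0.03) and was called higher with the length trend removed (0.21, SE 0.03). Among 15 tested readers and erasers, 2 rose and 3 fell, or 1 and 2 without knockdown library 1 or without wild-type rescue library 1. After length correction 3 were called higher and 3 lower (7.9% and 9.26% of all tested genes were), and these counts changed when a wild-type rescue library was left out. The cytoplasmic reader YTHDF3 stood at 115 and 116 CPM in the knockdown, above the 98.4 and 96.0 of the wild-type rescue (log2 fold change -0.24, SE 0.04, adjusted p = 7.54e-08 by edgeR), with the control at 99.7 and 104. HNRNPA2B1, a nuclear RNA-binding protein described as a reader, rose from 995 and 991 CPM to 1077 and 1050 (0.10, SE 0.02).

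Many genes differed by small amounts between the wild-type rescue and the knockdown. By edgeR's quasi-likelihood test with Benjamini-Hochberg adjustment (called at an adjusted p under 0.05, with no minimum fold), 3673 genes were called, 24% of those tested: 1652 were higher (10.8%) and 2021 lower (13.2%) in the wild-type rescue. The median absolute log2 fold change of called genes was 0.19, and 35 called genes passed an absolute log2 fold change of 1. Without wild-type rescue library 1, 2979 genes were called. The direction of change followed gene length, taken from the deposited length column. Among the 1529 shortest genes (43 to 1219 bases) 21.7% were higher and 1.05% lower, with a median log2 fold change of 0.12. Among the 1529 longest (7305 to 116854 bases) 3.92% were higher and 42.4% lower, with a median of -0.12. The rank correlation of log2 fold change with length was -0.346 across the 15289 genes, given as a description because genes are not independent replicates. It lay between -0.288 and -0.318 for each single wild-type rescue library against each knockdown library, but was -0.0506 between the wild-type rescue libraries and -0.0200 between the knockdown libraries.

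**Figure D1:**
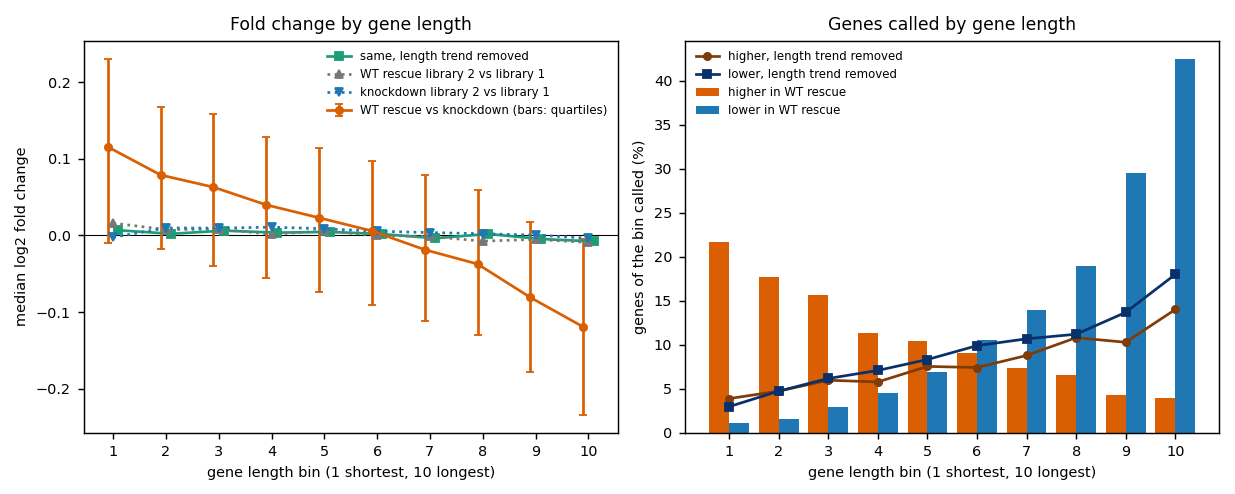
Left: median log2 fold change (y axis) in 10 bins of genes by deposited length (x axis, shortest to longest), for wild-type rescue over knockdown (orange, bars from the first to the third quartile), the same with the length trend removed (green), and library 2 against library 1 within each group (dotted). Right: percent of each bin's genes called higher or lower, as bars without length correction and as lines with the length trend removed. The orange medians fall from 0.12 to -0.12, while the green and dotted lines stay near 0.

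A second fit therefore removed, in each library, the smooth trend of expression over length. It called 2623 genes, 17.2% of those tested: 1208 higher (7.9%) and 1415 lower (9.26%), or 1951 genes without wild-type rescue library 1. Without knockdown library 1 it called 1658. In the first fit and this one alike, 877 genes were called higher and 1226 lower. The first fit alone called 1563 genes, the second alone 513, and 7 genes were called in opposite directions. In the longest bin the calls became closer to even, at 14.0% higher and 18.0% lower. The other comparisons, which share libraries with this one, had trends of their own. From the shortest to the longest bin the median log2 fold change went from -0.02 to 0.09 for the knockdown against the control and from 0.11 to -0.13 for the mutant rescue against the knockdown. Deposited lengths were at least 5 times the length of the gene's GENCODE transcript for 143 of 13251 genes, of which 94 lie on chromosome 6. Values with the length trend removed are less sure for those genes. Across the 13251 genes the rank correlation of log2 fold change with transcript length was -0.411. After the deposited length trend was removed it was still -0.122 with transcript length and 0.127 with GC content, so that fit leaves part of the trend.

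**Figure D2:**
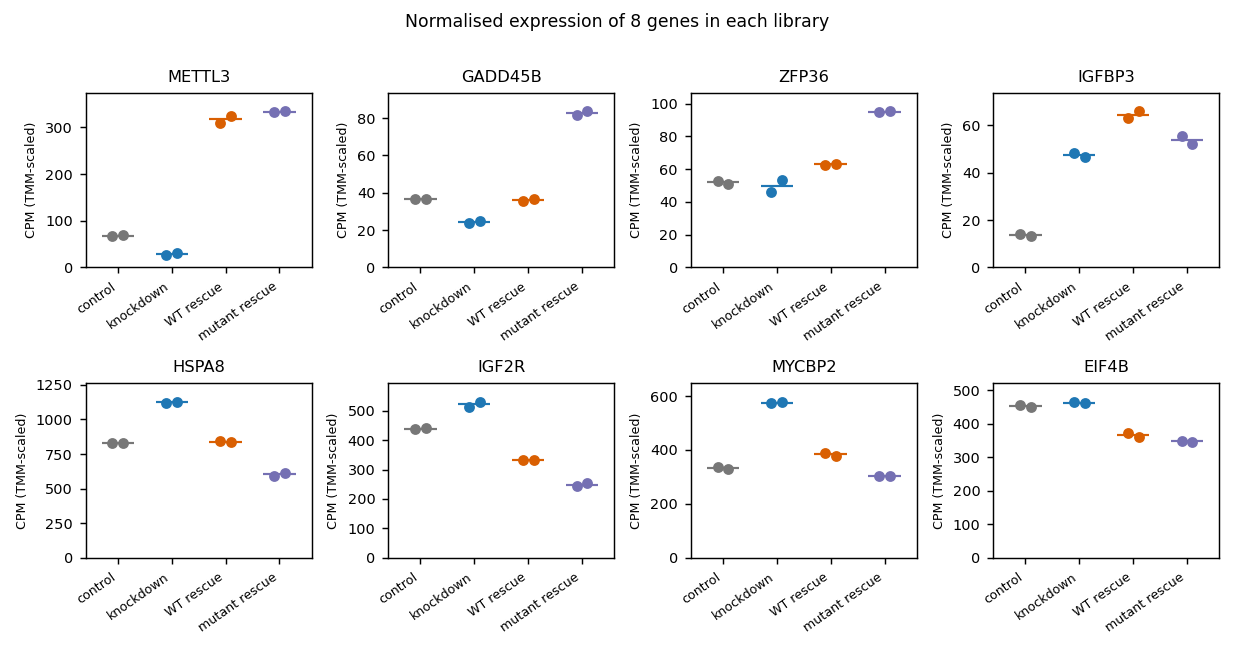
Expression of 8 genes in CPM (y axis, from 0) in each of the 8 libraries (points) of the 4 groups (x axis), with the group mean as a line. For METTL3, GADD45B, ZFP36 and IGFBP3 both wild-type rescue libraries lie above both knockdown libraries, and for HSPA8, IGF2R, MYCBP2 and EIF4B both lie below.

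Of the genes that averaged 50 CPM or more, the strongest rise after METTL3 in the first fit was that of IGFBP3, a secreted protein that binds insulin-like growth factors. It had 48.3 and 46.8 CPM in the knockdown and 63.1 and 65.9 in the wild-type rescue (log2 fold change 0.44, SE 0.05, adjusted p = 2.62e-13 by edgeR, or 0.41 after length correction). The wild-type rescue was the highest of the 4 groups, since the control had 14.2 and 13.4 CPM and the mutant rescue 55.6 and 52.2, and IGFBP3 was lower in the mutant than in the wild-type rescue (log2 fold change -0.26, SE 0.05, adjusted p = 4.16e-06 by edgeR). LCN2, an iron-binding secreted lipocalin, went from 59.4 and 60.1 CPM to 75.1 and 80.3 (0.38, SE 0.05). RRAS, a small GTPase of the RAS family, went from 47.9 and 51.9 to 61.9 and 65.5 (0.36, SE 0.05). KMT5C, which methylates histone H4, went from 49.2 and 50.6 to 61.2 and 66.5 (0.36, SE 0.05). FAM193B rose from 73.9 and 71.4 CPM to 93.3 and 96.8 (0.39, SE 0.04), and ANO8, GABBR1, ZFP36, PGGHG and MZT2B rose by 0.34 to 0.36, where GABBR1 is one of the chromosome 6 genes with a deposited length (35482 bases) far above that of its transcript. With the length trend removed, MAPK8IP3, a scaffold of JNK signalling and axonal transport (0.39), and NKTR, a cyclophilin-related protein (0.38), joined the 10 strongest rises. In that fit GABBR1 (0.46) and FAM193B (0.42) stood above IGFBP3 (0.41). For all of these genes the libraries of the groups did not overlap, and each rise was called in both fits.

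The falls at the same level were larger. IGF2R, the receptor that carries IGF2 and lysosomal enzymes to the lysosome, had 512 and 529 CPM in the knockdown and 331 and 333 in the wild-type rescue (log2 fold change -0.65, SE 0.02, adjusted p = 9.11e-61 by edgeR, or -0.52 after length correction). The control, at 437 and 440.2 CPM, lay between them, and the mutant rescue was lower still at 245 and 254. RC3H2, a RING-finger RNA-binding protein that promotes decay of messenger RNA, went from 72.4 and 74.2 CPM to 44.5 and 46.9 (-0.68, SE 0.05). Its deposited length is 4198 bases and its fall was of like size with the length trend removed (-0.66, SE 0.05), but its GENCODE transcript has 9248 bases, and with trends over that length and GC content removed it stood at -0.54. MYCBP2, a ubiquitin ligase, had 574 and 578 CPM in the knockdown and 390.0 and 379 in the wild-type rescue (-0.58, SE 0.02), with the control at 337 and 329. Both knockdown libraries stood above all the others for MYCBP2. EPPK1, a cytoskeletal linker of the plakin family, fell by 0.64, and PRUNE2, PANK3, STXBP5L, FAT1 and HSPG2 fell by 0.53 to 0.54 on the log2 scale, each by 0.40 or more with the length trend removed. FAT1 is a giant cadherin and HSPG2 the basement membrane proteoglycan perlecan. PANK3, which starts coenzyme A synthesis, has a deposited length of 3387 bases but a GENCODE transcript of 10506, and with trends over transcript length and GC content removed it stood at -0.38.

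Among genes of lower abundance (a mean of at least 5 CPM) the falls were larger still. POMK, a kinase that modifies dystroglycan's sugar chain, had 14.6 and 14.7 CPM in the knockdown and 6.83 and 6.46 in the wild-type rescue (log2 fold change -1.14, SE 0.12, adjusted p = 6.67e-16 by edgeR). The control had 13.8 and 14.9 CPM and the mutant rescue 7.34 and 7.43, so the 4 libraries with introduced METTL3 were the low ones. IGSF9B, an adhesion protein, showed the same order of groups, with 9.82 and 11.5 CPM in the knockdown, 5.54 and 5.08 in the wild-type rescue and 11.4 and 9.76 in the control (-1.0, SE 0.13). FRK, a tyrosine kinase, differed from it in that the control was low too: 11.3 and 9.53 CPM in the knockdown, 5.03 and 5.97 in the wild-type rescue and 5.05 and 5.79 in the control (-0.92, SE 0.13). DDI2, a protease (-0.89, SE 0.10), and RGP1, a partner of a RAB exchange factor (-0.88, SE 0.08), also fell. Of the rises, that of TBX6, a T-box factor, was from 5.53 and 5.53 CPM to 8.70 and 7.85 (0.58, SE 0.14), while MSS51 (0.63, SE 0.16) lost its call without wild-type rescue library 1 (0.39, adjusted p = 0.146) or knockdown library 1 (0.43, adjusted p = 0.131).

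**Figure D3:**
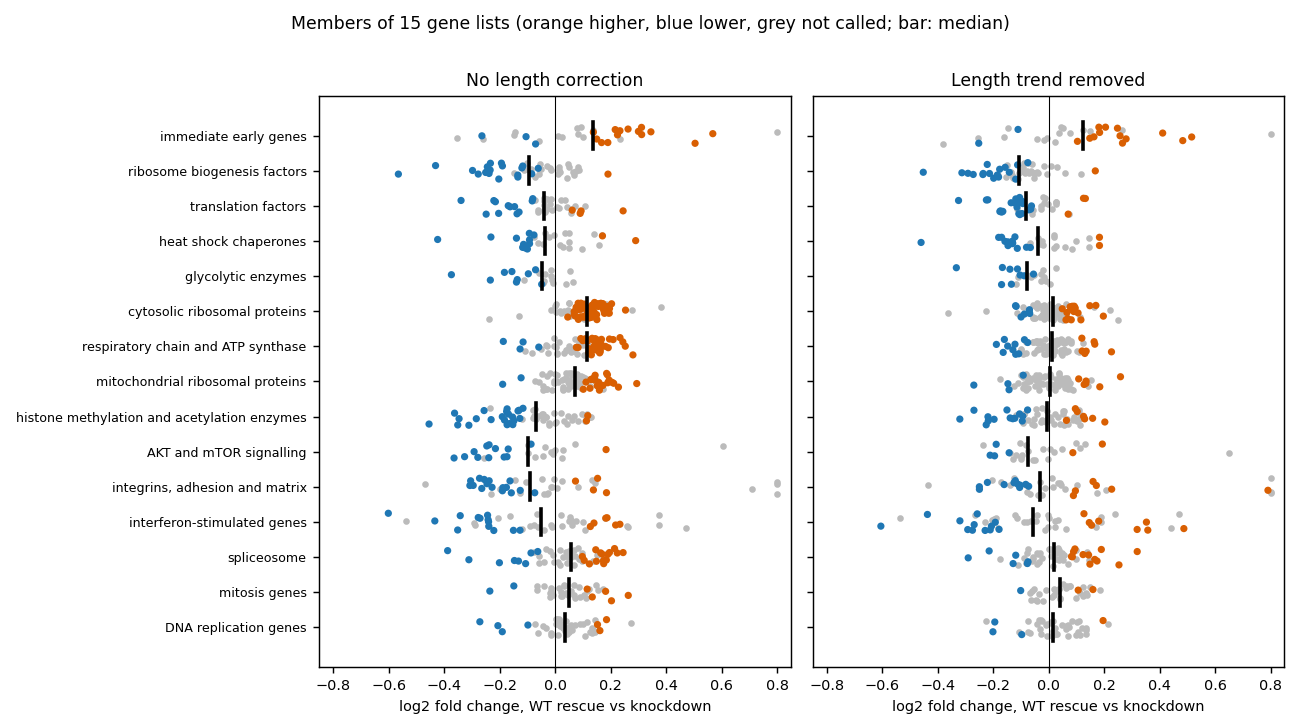
Log2 fold change, wild-type rescue over knockdown (x axis), for every tested member (point) of 15 gene lists (y axis), without length correction (left) and with the length trend removed (right); orange points were called higher, blue lower and grey not called, and black bars are list medians. In each panel 4 members beyond the axis are drawn at its edge. Ribosomal protein and respiratory chain medians move to near 0 on the right, while those of immediate early genes and ribosome biogenesis factors stay on their side of 0.

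Immediate early genes, which respond within minutes to growth factors and stress, leaned higher in the wild-type rescue. Of 31 tested, 14 rose (10.8% of all tested genes did) and 3 fell, with a median log2 fold change of 0.14 against 0.01 over all tested genes. The rises numbered 12 without wild-type rescue library 1. With the length trend removed 13 were called higher (7.9% of all tested genes were) and 2 lower, or 8 higher without knockdown library 1 or library 2. The 3 falls became 1 without knockdown library 2 or wild-type rescue library 1, and the 2 lower calls with the trend removed became 1 without either of these or without knockdown library 1. GADD45B, a stress-induced regulator of MAP kinase signalling, had 24.0 and 25 CPM in the knockdown and 35.8 and 36.9 in the wild-type rescue (log2 fold change 0.57, SE 0.07, adjusted p = 4.11e-13 by edgeR). The wild-type rescue libraries matched the control, at 36.6 and 36.6 CPM, and the mutant rescue was far above both at 81.6 and 83.5. ZFP36, which promotes decay of AU-rich messenger RNAs, went from 46.0 and 53.2 CPM to 62.6 and 63.0 (0.35, SE 0.05). IER2, a nuclear protein of this class, went from 71.6 and 75 to 89.1 and 92.6 (0.31, SE 0.05). SGK1, a kinase induced by glucocorticoids, was called at 0.50 (SE 0.16), but wild-type rescue library 1 held 7.80 CPM against 5.03 in library 2, and without library 1 it was not called (0.18, adjusted p = 0.624), nor without knockdown library 1 or 2 (adjusted p = 0.0629 and 0.0945). The AP-1 subunits JUND, JUN and JUNB rose by 0.26, 0.19 and 0.17, of which JUNB was not called with trends over transcript length and GC content removed (0.05, adjusted p = 0.201 by edgeR). JUND stood at 269 and 257 CPM in the knockdown, 319 and 313 in the wild-type rescue and 548 and 524 in the mutant rescue, so the dead enzyme's libraries were the highest. The mutant rescue exceeded the wild-type rescue by 0.76 for JUND and by 1.18 for GADD45B (adjusted p = 1.90e-67 and 1.28e-49 by edgeR). MYC, the transcription factor, was an exception in this list, with 328 and 328 CPM in the knockdown and 312 and 313 in the wild-type rescue (-0.07, SE 0.02, adjusted p = 0.0205 by edgeR). Its call did not hold without any 1 of the 4 libraries (adjusted p between 0.0682 and 0.0887). After length correction MYC was called lower (-0.11, adjusted p = 1.43e-04 by edgeR).

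Ribosome biogenesis factors, which transcribe, cut and fold ribosomal RNA in the nucleolus, leaned lower. Of 46 tested, 19 fell (13.2% of all tested genes did) and 1 rose, with a median log2 fold change of -0.09. The falls numbered 18 without wild-type rescue library 1. With the length trend removed 17 were called lower (9.26% of all tested genes were), with a median of -0.11, or 10 without wild-type rescue library 2. The 1 rise lost its call there without wild-type rescue library 2 or knockdown library 1. POLR1A, the largest subunit of RNA polymerase I, had 77.5 and 79.3 CPM in the knockdown and 55 and 51.2 in the wild-type rescue (log2 fold change -0.56, SE 0.05, adjusted p = 9.49e-21 by edgeR, or -0.45 after length correction). The control was like the knockdown, at 79.5 and 82.7 CPM, and the mutant rescue was lowest at 40.3 and 39.9. UTP20, a component of the small-subunit processome, went from 45.6 and 45.6 CPM to 34.9 and 32.8 (-0.43, SE 0.06), and its partner HEATR1 went from 82.4 and 85.0 to 69.9 and 66.4 (-0.30, SE 0.05). POLR1B, the second polymerase I subunit, fell by 0.28, and DDX56, an RNA helicase, was the 1 member that rose (0.19, SE 0.04). Many of these genes carry the E-box CACGTG, the letters bound by MYC and related factors, near their start. The motif reads the same on both strands and was searched from 250 bases before to 50 after the RefSeq start: it occurred in 19 of the 40 members with a window (47.5%) and in 12.4% of the 11109 tested genes with one. The windows of POLR1A and TSR1 held no match. The stretches around the match in UTP20 (chr12:101280075-101280120, plus strand) and in NAT10 (chr11:34105594-34105639, plus strand), an RNA acetyltransferase of the nucleolus that went from 81.7 and 80.6 CPM to 72.9 and 69.7 (-0.19, SE 0.05), are shown from RefSeq GRCh38.p14, 5′ to 3′, with the E-box in capitals.
UTP20: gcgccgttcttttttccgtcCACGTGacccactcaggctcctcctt
NAT10: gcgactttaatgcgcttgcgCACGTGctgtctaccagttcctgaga
A match is a description of the letters and not of binding.

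Translation factors start, extend and end protein chains at the ribosome. Of 38 tested, 12 fell and 4 rose (13.2% and 10.8% of all tested genes did; list median -0.04), and with the length trend removed 21 were called lower and 3 higher (9.26% and 7.9% of all; list median -0.08). Without wild-type rescue library 1 these falls numbered 10 and 16, and without knockdown library 1 the second numbered 12. The 4 rises became 2 without knockdown library 2, and the 3 with the trend removed became 1 without wild-type rescue library 2. EIF4B, which helps the helicase that unwinds 5′ leaders, had 465 and 461 CPM in the knockdown and 372 and 361 in the wild-type rescue (log2 fold change -0.34, SE 0.02, adjusted p = 8.25e-30 by edgeR, or -0.32 after length correction). The scaffold EIF4G1 went from 931 and 949 CPM to 790.1 and 792 (-0.25, SE 0.02). EEF1A1, which brings aminoacyl-tRNA to the ribosome, went from 403 and 403 to 343 and 348 (-0.22, SE 0.02). The highest of these 4 libraries were the knockdown ones for each of the genes, with no overlap. Near-identical copies of EEF1A1 elsewhere in the genome could take some of its reads. EEF2, the translocation factor, fell by 0.16, and EIF4EBP1, which holds EIF4E inactive, rose from 94.8 and 93.9 CPM to 109 and 114 (0.25, SE 0.04), but was not called with trends over transcript length and GC content removed (0.08, adjusted p = 0.0979 by edgeR).

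Of 78 tested cytosolic ribosomal proteins, 57 rose and the other 21 were not called, with a median log2 fold change of 0.12, against 10.8% of all tested genes that rose. Reads of such genes can be split with processed pseudogenes, which makes single values less sure. These genes are short, with a median length of 898.5 bases. After length correction 17 were called higher and 7 lower (7.9% and 9.26% of all tested genes) and the median was 0.02, or 8 higher without wild-type rescue library 2. Without wild-type rescue library 1 the counts were 57 higher in the first fit and 22 higher and 4 lower in the second. Calls in the second fit included RPL28, RPL27A and RPL13, whose deposited lengths of 5183, 4879 and 4726 bases are far above the list's median. RPL28 stood at 669 and 663 CPM in the knockdown and 730.2 and 749 in the wild-type rescue (0.15, SE 0.02, or 0.20 after length correction). RPL37A, of 418 bases, went from 681 and 694 CPM to 776 and 806 (0.20, SE 0.02), and its change with the length trend removed was 0.06 (SE 0.02).

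Messenger RNAs of the translation apparatus are known for a 5′ terminal oligopyrimidine (TOP) tract, a cytosine at the first transcribed base followed by pyrimidines. With at least 4 pyrimidines required after that cytosine, on the transcribed strand, 46 of 62 ribosomal proteins with a RefSeq window (74.2%), 12 of 28 translation factors (42.9%) and 787 of 11109 tested genes (7.08%) had such a start. The starts of 2 genes that rose (RPL28, chr19:55385912-55385951, plus strand, and RPL13, chr16:89560662-89560701, plus strand) and of 2 that fell (EEF1A1, chr6:73521013-73521052, minus strand, and EIF4B, chr12:53006436-53006475, plus strand) are shown from RefSeq GRCh38.p14 to set genes with a like start and unlike direction side by side. Each line runs 5′ to 3′, and capitals mark the tract from the first transcribed base.
RPL28: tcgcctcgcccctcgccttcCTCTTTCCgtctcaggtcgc
RPL13: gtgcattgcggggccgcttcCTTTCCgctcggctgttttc
EEF1A1: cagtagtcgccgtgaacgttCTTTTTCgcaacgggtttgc
EIF4B: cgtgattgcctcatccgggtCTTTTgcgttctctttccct
All 4 genes hold the tract, while EEF1A1 and EIF4B fell and RPL28 and RPL13 rose in both fits. They were chosen for these directions. In the second fit only 17 of the 78 tested ribosomal proteins were called higher and 7 lower (7.9% and 9.26% of all tested genes were).

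Respiratory chain and ATP synthase subunits make the cell's ATP in mitochondria. Of 76 tested, 42 rose and 4 fell (10.8% and 13.2% of all tested genes did; list median 0.11), 37 rose without wild-type rescue library 1, and with the length trend removed 7 were called higher and 10 lower (7.9% and 9.26% of all; list median 0.01). Those 10 became 5 or 6 when any 1 of the 4 libraries was left out. Their median length is 974.5 bases. COX6A1, a subunit of cytochrome c oxidase of 572 bases, went from 106 and 109.9 CPM to 127 and 129.9 (0.25, SE 0.04), or 0.12 (SE 0.04) with the length trend removed. NDUFS1, a complex I subunit of 3572 bases, fell from 181 and 179 to 161 and 155 (-0.19, SE 0.03) and by 0.19 with the length trend removed. Its GENCODE transcript is longer than the deposited length, and with trends over that length and GC content removed it was not called (-0.01, adjusted p = 0.887 by edgeR). Of 75 mitochondrial ribosomal proteins 21 rose and 2 fell, and 6 were called higher and 4 lower with the length trend removed, near the shares over all tested genes (7.9% and 9.26%). The 21 rises became 12 without knockdown library 1, 11 without library 2, 17 without wild-type rescue library 1 and 8 without library 2. The 2 falls became 1 without either wild-type rescue library. With the trend removed the 6 became 1, 3, 3 and 2 in the same order, and the 4 became 2 without knockdown library 1, wild-type rescue library 1 or control library 1.

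**Figure D4:**
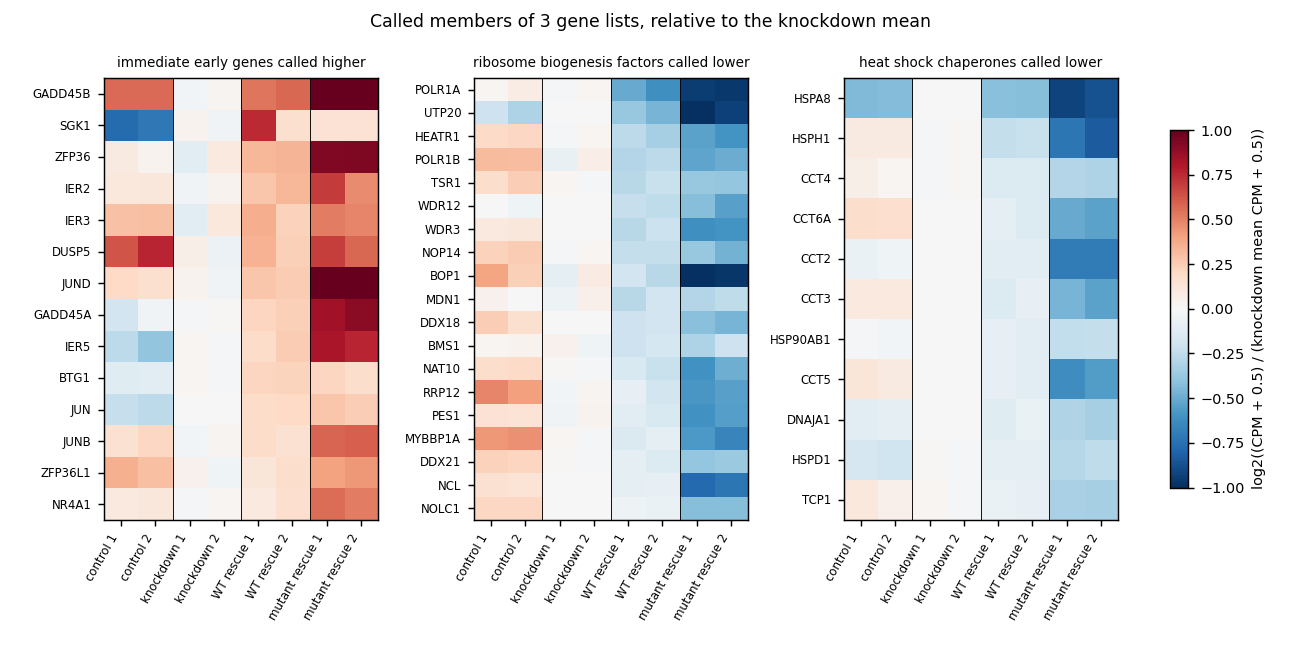
Each row is a member called in the first fit in its list's main direction (14 immediate early genes called higher, 19 ribosome biogenesis factors and 11 chaperones called lower), and each column 1 of the 8 libraries; colour is the log2 ratio of CPM + 0.5 to the knockdown mean + 0.5, with the scale ending at -1 and 1. Members called the other way (3, 1 and 2) are not drawn. The mutant rescue lies further from the knockdown than the wild-type rescue for 12 of the 14 immediate early genes, all 19 ribosome biogenesis factors and all 11 chaperones shown.

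Heat shock chaperones, which fold new and damaged proteins, leaned lower. Of 29 tested, 11 fell and 2 rose (13.2% and 10.8% of all tested genes did), 10 fell without wild-type rescue library 1, and with the length trend removed 13 were called lower and 2 higher (9.26% and 7.9% of all). Those 2 became 1 without either wild-type rescue library, and both lost their calls without knockdown library 1. HSPA8, the constitutive HSP70 chaperone, had 1122 and 1126 CPM in the knockdown and 842 and 835 in the wild-type rescue (log2 fold change -0.42, SE 0.02, adjusted p = 1.04e-47 by edgeR, or -0.46 after length correction). The control had 829.5 and 831 CPM, like the wild-type rescue, and the mutant rescue 593 and 613. HSPH1, a nucleotide exchange factor of HSP70, went from 109.8 and 112 CPM to 94.1 and 94.7 (-0.23, SE 0.04). Subunits of the CCT ring, which folds actin and tubulin, were among the falls, with CCT4 going from 163 and 165 CPM to 149 and 149 (-0.14, SE 0.03). HSPD1, the mitochondrial HSP60, fell from 858 and 840.4 CPM to 799 and 795 (-0.09, SE 0.02), and HSP90AB1, the constitutive HSP90, from 1100 and 1110 to 1042 and 1021 (-0.10, SE 0.02). HSPE1, the partner of HSPD1, was called higher (0.29, SE 0.06), a call lost without knockdown library 1 (0.17, adjusted p = 0.131). The letters GAANNTTC, a pair of inverted units of the heat shock element, read the same on both strands and occurred in the windows of 12 of 27 members (44.4%) and of 6.55% of the tested genes with a window. The stretches around the match are shown for HSPA8 (chr11:123062339-123062386, minus strand), HSPD1 (chr2:197500053-197500090, minus strand) and HSP90AB1 (chr6:44247763-44247810, plus strand) from RefSeq GRCh38.p14, 5′ to 3′, with the match in capitals, because these members fell in both fits.
HSPA8: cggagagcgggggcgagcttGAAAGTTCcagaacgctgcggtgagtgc
HSPD1: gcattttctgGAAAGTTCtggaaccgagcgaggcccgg
HSP90AB1: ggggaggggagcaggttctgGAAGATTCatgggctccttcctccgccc
HSPA8 and HSPD1 hold the same letters at the match, and their falls were of different size.

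Of 21 tested glycolytic enzymes 9 fell (13.2% of all tested genes did) and the other 12 were not called, and 9 were called lower with the length trend removed (9.26% of all). Without wild-type rescue library 1, 8 fell in either fit, and 1 rose in the first. PFKFB3, which makes the activator of phosphofructokinase, had 57.4 and 56.1 CPM in the knockdown and 45.7 and 42.2 in the wild-type rescue (log2 fold change -0.37, SE 0.05, adjusted p = 1.48e-09 by edgeR). HK2, the inducible hexokinase, went from 71.7 and 77 to 63.5 and 62.8 (-0.23, SE 0.05), and ENO1, enolase, from 1084 and 1093 to 978 and 976 (-0.16, SE 0.02). The libraries of the groups did not overlap for any of the 3 genes. LDHA, lactate dehydrogenase, went from 401 and 402 to 370.4 and 361 (-0.14, SE 0.02), and the mutant rescue, at 262 and 257 CPM, lay below the wild-type rescue by 0.49 (SE 0.02, adjusted p = 1.32e-42 by edgeR).

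Enzymes that methylate or acetylate histones are long genes, with a median length of 6813 bases, and 22 of 57 fell while 2 rose (13.2% and 10.8% of all tested genes did). There were 18 falls without wild-type rescue library 1. With the length trend removed 14 were called lower and 7 higher (9.26% and 7.9% of all), with the median at -0.07 before and near 0 after. The 14 became 8 without knockdown library 1 or either wild-type rescue library, and the 7 became 4 without knockdown library 1 and 3 without wild-type rescue library 2. Of the 2 rises, 1 lost its call without knockdown library 1 and both without wild-type rescue library 2. NSD1, a histone H3 lysine 36 methyltransferase, had 205 and 198 CPM in the knockdown and 147 and 147 in the wild-type rescue (log2 fold change -0.45, SE 0.03, adjusted p = 6.21e-29 by edgeR, or -0.32 after length correction). Its relative NSD3 went from 117 and 112 CPM to 89.3 and 88.9 (-0.36, SE 0.04). The acetyltransferases KAT6A and CREBBP fell by 0.35 each, and by 0.22 each with the length trend removed. These 4 genes kept their calls in both fits, although the list as a whole moved to near 0.

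Signalling genes of the AKT and mTOR pathway, with a median length of 6856 bases, fell in 12 of 27 and rose in 1 (13.2% and 10.8% of all tested genes did), and 10 fell without wild-type rescue library 1. With the deposited length trend removed, 4 were called lower and 2 higher (9.26% and 7.9% of all), and the list median went from -0.10 to -0.07. In the fit added after seeing the data, with trends over transcript length and GC content removed, 9 were called lower and 4 higher. Its list median was -0.09, and it called 10.2% of all genes lower and 8.42% higher. The rise in the first fit lost its call without knockdown library 1. Fewer were called higher with the deposited length trend removed when knockdown library 1 or either wild-type rescue library was left out. MTOR, the kinase that couples nutrients to growth, had 146 and 149 CPM in the knockdown and 112 and 122 in the wild-type rescue (-0.33, SE 0.03, or -0.21 after length correction). The control was higher than both, at 202 and 194 CPM. PIK3R1 and PIK3R3, regulatory subunits of PI3-kinase, fell by 0.29 and 0.28, and by 0.19 each with the length trend removed. IGF1R, the growth factor receptor upstream, had 125 and 124 CPM in the knockdown and 108 and 107 in the wild-type rescue (-0.21, SE 0.04), and lost its call after length correction (-0.08, adjusted p = 0.119 by edgeR).

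Of 42 tested integrin, adhesion and matrix genes, 16 fell while 4 rose (13.2% and 10.8% of all tested genes did), with 17 falls without wild-type rescue library 1. With the length trend removed 11 were called lower and 6 higher (9.26% and 7.9% of all). Without knockdown library 1 the 4 rises became 1 and the 6 became 2. ITGB1, the common beta-1 integrin, went from 282 and 277 CPM to 231 and 235 (log2 fold change -0.26, SE 0.03, adjusted p = 7.88e-17 by edgeR, or -0.25 after length correction). DAG1, dystroglycan, went from 265 and 258 to 209.8 and 214 (-0.30, SE 0.03), and TLN1, the integrin activator talin, from 221 and 229 to 191 and 182 (-0.27, SE 0.03). The knockdown libraries were the higher for each. COL6A1, a collagen VI chain, went the other way, from 366 and 377 CPM to 409 and 418 (0.15, SE 0.02).

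Interferon-stimulated genes form the antiviral programme that double-stranded RNA can start. Of 48 tested, 13 fell and 6 rose, where 13.2% and 10.8% of all tested genes did, so the share of rises was near that over all genes. The counts were 13 and 6 also without wild-type rescue library 1, and with the length trend removed 12 were called lower and 8 higher (9.26% and 7.9% of all). The 12 became 4 without knockdown library 1 and 6 without wild-type rescue library 2, and the 8 became 4 without knockdown library 2 and 5 without any other of the 4 libraries. RSAD2, an antiviral enzyme also known as viperin, had 6.26 and 6.48 CPM in the knockdown and 4.12 and 4.25 in the wild-type rescue (log2 fold change -0.60, SE 0.16, adjusted p = 0.00254 by edgeR). The control had 2.59 and 2.96 CPM. HERC5, a ligase of the interferon response, went from 21.4 and 18.5 to 13.8 and 15.7 (-0.43, SE 0.09). ADAR, which edits adenosines in double-stranded RNA, went from 475 and 474 to 369.8 and 374 (-0.35, SE 0.02), near the control's 384 and 379. EIF2AK2, the kinase PKR, went from 32.6 and 37.7 to 26.5 and 28.6 (-0.34, SE 0.07). Antigen presentation genes were among the rises. HLA-B went from 154 and 154 CPM to 183 and 178 (0.23, SE 0.03), and HLA-C from 239 and 238 to 267 and 276 (0.19, SE 0.03). These genes share near-identical stretches with others of their family, so reads could be split between them, and their deposited lengths of 9666 and 11053 bases are over 5 times those of their transcripts. With trends over transcript length and GC content removed, they stood at 0.14 and 0.09, both called by edgeR, where 8.42% of the 13234 genes in that fit were called higher and 10.2% lower.

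BBC3, GDF15 and CDKN1A, 3 single genes chosen after their values were seen, rose in the wild-type rescue. BBC3, the cell death factor PUMA, had 28.8 and 32.5 CPM in the knockdown and 44.6 and 42.3 in the wild-type rescue (log2 fold change 0.50, SE 0.06, adjusted p = 2.20e-12 by edgeR). The control, at 37.0 and 38.2, lay between them and the mutant rescue was at 86.1 and 82.4. GDF15, a secreted stress factor, went from 1827 and 1872 CPM to 2254 and 2312 (0.30, SE 0.02), and CDKN1A, the cell cycle inhibitor p21, from 442 and 455 to 516 and 530.5 (0.22, SE 0.02). In the cell cycle lists, of 36 mitosis genes 5 rose and 2 fell, and of 45 DNA replication genes 3 rose and 4 fell. Over all tested genes 10.8% rose and 13.2% fell. With the length trend removed, 2 mitosis genes were called higher and 1 lower, and 1 replication gene higher and 3 lower (7.9% and 9.26% of all). The counts with the trend removed changed under left-out libraries, as did some of the first. The 5 became 2 without knockdown library 2, 3 without wild-type rescue library 2 and 4 without wild-type rescue library 1. The 4 became 2 without either knockdown library, 1 without wild-type rescue library 2 and 3 without wild-type rescue library 1.

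Spliceosome genes, which remove introns, moved both ways. Of 52 tested, 15 rose and 8 fell (10.8% and 13.2% of all tested genes did), or 12 and 6 without wild-type rescue library 1 and 5 falls without knockdown library 1. After length correction 12 were called higher and 6 lower (7.9% and 9.26% of all). The 12 became 7 without either knockdown library or wild-type rescue library 2, and the 6 became 3 without wild-type rescue library 2. PRPF8 and SNRNP200, large core proteins of the U5 particle, fell by 0.39 and 0.31 and by 0.29 and 0.21 with the length trend removed. PRPF8 stood at 526 and 538 CPM in the knockdown and 404 and 409 in the wild-type rescue, and SNRNP200 at 364 and 380.1 against 304 and 296. U2 proteins went both ways too, with SF3B1 at 0.10 and SF3B3 at -0.20, both called, although SF3B3 was not called with trends over transcript length and GC content removed (-0.03, adjusted p = 0.422 by edgeR). SF3A2, another of them, went from 151 and 159 CPM to 180.2 and 187 (0.25, SE 0.03), and SRSF4, a serine and arginine-rich factor, from 95.2 and 92.8 to 108 and 111 (0.22, SE 0.04). Of 24 tested nuclear-retained and prostate noncoding RNAs, 7 rose and 2 fell (10.8% and 13.2% of all tested genes did). With the length trend removed 6 were called higher and 3 lower (7.9% and 9.26% of all). The 2 falls did not keep their calls under every left-out library. Nuclear-retained RNAs were among the rises. MALAT1, of nuclear speckles, went from 10400 and 10114 CPM to 11826 and 12048 (0.22, SE 0.02), and NEAT1, the scaffold of paraspeckles, from 3889 and 3865 to 4547 and 4444 (0.21, SE 0.02). At 8751 and 22741 bases they are long genes, and they went against the length trend: with it removed they stood at 0.33 and 0.34.

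Genes that androgen induces, a defining programme of LNCaP cells, went both ways, with more falls than rises. Of the 42 tested, 17 fell while 4 rose (13.2% and 10.8% of all tested genes did), 13 fell without wild-type rescue library 1, and with the length trend removed 9 were called lower and 5 higher (9.26% and 7.9% of all), or 3 higher without knockdown library 2. KLK3, the prostate-specific antigen, rose from 2598 and 2636 CPM to 2952 and 3016 (0.19, SE 0.02), below the control's 3705 and 3684, and KLK4, a related protease, from 185 and 181 to 218 and 220.2 (0.26, SE 0.03). PLA2G2A, a secreted phospholipase, went from 29.1 and 26.2 CPM to 39.8 and 41.1 (0.55, SE 0.06). MAF, a transcription factor, fell from 24.8 and 25.4 to 18.4 and 19.9 (-0.38, SE 0.08), HERC3 by 0.32, ZBTB16 by 0.30 and SORD, sorbitol dehydrogenase, by 0.27. Of 13 androgen-repressed genes 4 fell in both fits and the other 9 were not called, but without knockdown library 1 only 1 fell in either fit. Without wild-type rescue library 1, 3 fell, and 2 were called lower with the length trend removed. UGT2B17, which inactivates androgens, went from 68.2 and 70.0 CPM to 59.6 and 58.4 (-0.23, SE 0.05), far above the control's 22.9 and 21.5. In bulk libraries fewer cells of a type and less RNA per cell cannot be told apart.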

How the data were processed

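RNA was measured by RNA-seq in 8 LNCaP libraries, 4 of which are compared here. Per the labels' protocols, TRIzol RNA was made into libraries with a stranded mRNA kit; hg19, STAR 2.5.2b, CASAVA, featureCounts and DESeq2 stand in the submitters' processing notes, with parameters not given in the sources used here. The authors deposited raw counts for each gene and, in another column, a gene length in bases. Counts were tested with edgeR 4.0.16 in R 4.3.3: filterByExpr (minimum count 10, minimum total 15), TMM scaling, a robust quasi-likelihood fit with 1 mean per group on all 8 libraries, two-sided, with Benjamini-Hochberg adjusted p over 15289 genes. CPM are TMM-scaled. SE is the size of a log2 fold change over the root of its F statistic. The second fit adds as offset a lowess curve (span 0.3) of each library against the mean library over log2 length. At 2 against 2 an exact permutation test cannot go below 0.333. The steps were also run on counts simulated with this fit's own spread and a straight length trend or none. That run held no library unlike its replicate, GC trend or wrong gene length, so it cannot speak to those.

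Members and gene lists were chosen with earlier results of these data known. Named genes are METTL3, those among the 10 (mean of at least 50 CPM) or 6 (at least 5 CPM) largest rises and falls without overlap in either fit, and up to 4 called members per list with its regulator where reported; some that meet the rule are not named. RBM15B and KIAA1429 apart, further list members (such as HSPD1, HSP90AB1, NAT10, EEF2, LDHA, the AP-1 subunits, RPL28, HLA-B, HLA-C, BBC3, GDF15 and CDKN1A) were chosen after their values were seen. Some results are not reported here. Promoter windows come from RefSeq GRCh38.p14, and transcript length and GC content from GENCODE 29 protein-coding transcripts. Alternatives were DESeq2 1.42.0 (size factors, Wald test), no filter, the 4 libraries alone, the replicate number as a block, span 0.6, each library left out, and, added after seeing the data, transcript length without and with GC content.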

Additional observations from a re-analysis of the deposited data

How the results depend on the processing

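With the replicate number as a block, 3717 genes were called (2666 with the length trend removed); the deviations of same-numbered knockdown and wild-type rescue libraries correlated at 0.0411, so the numbers were not taken to pair them. Genes called numbered 3355 to 3627 with DESeq2 size factors, no filter or the 4 libraries alone, 1908 with the DESeq2 Wald test, and 2548 and 2461 with trends over transcript length, then also GC content, removed. Leaving out each library gave 2473 to 3680, or 1658 to 2651 with the length trend removed.

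With the DESeq2 Wald test 9 immediate early genes and 23 respiratory chain genes were higher. Ribosomal proteins called higher numbered 17 with the length trend removed (17 with the replicate block, 17 with span 0.6), 21 with transcript length and 22 with GC content too. Respiratory chain genes higher numbered 7, 8, 7, 7 and 9 in that order, and histone enzymes lower 14, 14, 10, 11 and 8. The length correlation was -0.346 with DESeq2 size factors, -0.185 without a filter and -0.183 with the DESeq2 Wald test, which was also run without that filter. It was -0.0034 with the trend removed (-0.0034 with the replicate block, 0.0014 with span 0.6), and -0.0729 and -0.0503 over transcript length and GC content. More genes, fewer genes or a changed length term are part of these alternatives. Beyond that the cause was not tested.

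Over left-out libraries, immediate early genes higher numbered 10 to 14, ribosome biogenesis factors lower 15 to 19, chaperones lower 9 to 11, glycolytic enzymes lower 6 to 9, ribosomal proteins higher 48 to 57, respiratory chain genes higher 28 to 43 and histone enzymes lower 18 to 22, and the length correlation was -0.334 to -0.292. Glycolytic enzymes lower numbered 6 with the DESeq2 Wald test. No named gene's called change turned direction under any alternative run. Depth limits changes in genes of a few CPM, where a call could rest on 1 library.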

Other observations

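Of 23 clock genes tested 3 rose and 4 fell, near the shares over all tested genes (10.8% and 13.2%). With the length trend removed 4 were called higher and 2 lower (7.9% and 9.26% of all), and the lower calls were lost without knockdown library 1 or wild-type rescue library 1. The 4 falls became 2 without either knockdown library or wild-type rescue library 2, and 3 without wild-type rescue library 1. PER1, a repressor of the circadian loop, had 69.7 and 68.8 CPM in the knockdown and 87.4 and 86.3 in the wild-type rescue (log2 fold change 0.33, SE 0.04, adjusted p = 2.19e-10 by edgeR, or 0.36 after length correction). The mutant rescue held 179.9 and 174 CPM, above the wild-type rescue by 1.03 (SE 0.04, adjusted p = 5.34e-58 by edgeR). DBP, a factor that the clock drives, went from 30.5 and 28.2 CPM to 38.3 and 39.1 (0.40, SE 0.06).

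Of 40 tested genes of amino acid supply and the ATF4 programme 5 rose and 8 fell, where 10.8% and 13.2% of all tested genes did. The 5 rises became 3 without knockdown library 2 or wild-type rescue library 2, and 6 fell without wild-type rescue library 1. With the length trend removed 1 was called higher and 7 lower, against 7.9% and 9.26% of all. That 1 became 2 without knockdown library 2 or wild-type rescue library 2, and the 7 became 4 without wild-type rescue library 1. SLC7A1, which imports arginine and lysine, went from 190.2 and 186 CPM to 144 and 145 (log2 fold change -0.38, SE 0.03, adjusted p = 8.47e-23 by edgeR, or -0.28 after length correction). SLC38A2, which imports neutral amino acids, went from 162 and 155 to 142 and 134 (-0.20, SE 0.03), and both lay below the control's 238 and 241 (SLC7A1) and 251 and 255 (SLC38A2). In the endoplasmic reticulum list 5 of 24 rose and 9 fell (10.8% and 13.2% of all tested genes did). Fewer of each were called without knockdown library 1 or wild-type rescue library 1. With the length trend removed 3 were called higher and 6 lower (7.9% and 9.26% of all). ERN1, the sensor IRE1, went from 40.2 and 43.2 CPM to 32.7 and 33.2 (-0.34, SE 0.06), and SEL1L, an adaptor of protein degradation there, from 189 and 189 to 155 and 147 (-0.33, SE 0.03). SYVN1, the ligase that works with SEL1L, went the other way, from 100.4 and 101 CPM to 116 and 115 (0.20, SE 0.04). Which of these genes carry m6A was not measured in these libraries.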
